A study of Mus musculus with 2 samples.

Results

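Patrolling monocytes, also called nonclassical or Ly6C-low monocytes, were examined among CD45+ leukocytes of kidneys from B6 mice given the treatment labelled AAN CKD, a chronic kidney disease model in which aristolochic acid, a toxin from plants, injures the tubules. The label gives week 2. A cell was taken as a patrolling monocyte when it held at least 1 UMI (a unique molecular identifier, that is, 1 captured RNA molecule) of at least 2 of the 4 genes Ace, Treml4, Adgre4 and Cd300e. It also had to hold C1qa at under 10 per 10000 UMIs, fewer than 2 UMIs of Cd209a and no UMI of Cd3d, Cd3e or Cd3g. Of 6601 cells that passed the filters, 86 met this rule, or 1.30%. The cells came from 1 library in which 2 samples had been marked by hashtags, antibody-borne barcodes. Hashed sample 1 held 38 patrolling monocytes among 3115 cells, 1.22% (exact 95% interval 0.865 to 1.67%). Hashed sample 2 held 48 among 3486 cells, 1.38% (exact 95% interval 1.02 to 1.82%). Intervals here are Clopper-Pearson intervals or exact intervals of a ratio of counts, and they cover counting error only. Both hashed samples carry the same treatment and time label, no untreated group was used here, and the labels do not say whether they are separate animals. The title of the sample names a single mouse and also names week 1, without saying which cells that would be. Its cell type label reads mesenchymal stem cells, which the CD45 sort and the myeloid genes of these cells go against.

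Patrolling monocytes circulate in blood, crawl along the inner wall of small vessels with the integrin LFA-1, and clear debris there. In mice they arise largely from classical Ly6C-high monocytes, and they depend on the nuclear receptor Nr4a1 and on C/EBPβ. They are known for high CD43 (Spn), CX3CR1 and the Fc receptor FcγRIV (Fcgr4), and for low CCR2, the receptor that brings classical monocytes into inflamed tissue. In kidney they have been described along glomerular and peritubular capillaries.

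They were set against 3 other groups of cells from the same library. C1qa-high macrophages, at 40 or more C1qa UMIs per 10000, numbered 1020 in hashed sample 1 and 1529 in hashed sample 2. Other Lyz2 cells, with C1qa under 10 and Lyz2 at 5 or more per 10000, numbered 927 and 883. They are a mixed group: 440 and 248 of them held a UMI of a Cd3 gene, and 97 and 210 held 2 or more UMIs of Cd209a, a marker of type 2 dendritic cells. Classical monocyte-type cells, the subset of these with at least 2 of Ly6c2, Chil3, Vcan and F13a1, no Cd3 UMI and fewer than 2 Cd209a UMIs, numbered 47 and 56. Among the cells of both monocyte groups, patrolling monocytes made up 44.7% (33.9 to 55.9%) in hashed sample 1 and 46.2% (36.3 to 56.2%) in hashed sample 2. The rules set this share, and cells that met both were counted as patrolling, so it does not estimate a share of kidney monocytes. Asking for at least 3 of the 4 rule genes gave 45 patrolling monocytes, and 111 cells with exactly 1 lay outside. Pairs of values below stand for hashed sample 1 and then hashed sample 2. Levels are CPM, UMIs of a gene summed over a group and given per 1000000 UMIs of that group, so 1 UMI in the patrolling monocytes was worth 6.22 and 5.08 CPM. The depth was lower in patrolling monocytes, with medians of 3486 and 3807 UMIs per cell, than in macrophages with 6249 and 6860, other Lyz2 cells with 4342 and 5913, and classical monocyte-type cells with 5981 and 5981. No barcode was shared between the hashed samples.

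The 4 genes of the rule were used to pick the cells, so their levels describe the choice only. Among the 86 cells, 68 held a UMI of Ace (the angiotensin-converting enzyme, GRCm38 chr11:105967945-105989964), 66 of Treml4 (a receptor for dying cells, chr17:48264295-48275360), 70 of Adgre4 (an adhesion G protein-coupled receptor, chr17:55749984-55853662) and 22 of Cd300e (an activating receptor, chr11:115051917-115062177). Ace stood at 535 and 488 CPM in patrolling monocytes and at 0 and 0 in classical monocyte-type cells. Of the members, 41 held exactly 2 of the 4 genes, 36 held 3 and 9 held all 4. Just outside the rule were 111 cells with exactly 1 of the 4 genes that met the other criteria, 6 left out for C1qa alone and 2 left out for Cd3 alone. No cell was left out for Cd209a alone. C1qa was at 0 in 35 of the 86 members, and Lyz2 reached 5 per 10000 in all 86.

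Genes outside the rule that are known for patrolling monocytes were high in these cells. No test of a difference is given anywhere below, because the 2 hashed samples share a library and the cells were picked on their expression. A gene is called higher or lower when its ratio, with 10 CPM added to each level, passed 1.5-fold the same way in both hashed samples, among genes at 50 CPM or more, in each hashed sample, in at least 1 of the groups compared. Of the 18 genes listed for patrolling monocyte identity, all were measured. Against C1qa-high macrophages 16 were higher and 1, Cx3cr1, was lower, beside 16.2% of all 2935 measured genes higher and 11.5% lower. Against other Lyz2 cells 17 were higher and 1, Itgax, was lower, beside 14.2% higher and 8.74% lower of 2906 genes. Against classical monocyte-type cells 16 were higher and none lower, beside 10.2% higher and 6.70% lower of 2807 genes. The median log2 ratio of the 18 genes was 3.07 and 2.89 against macrophages and 2.22 and 2.24 against classical monocyte-type cells, where the medians of all measured genes were 0.12 and 0.09, and 0.04 and 0.04.

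Spn, the CD43 sialoprotein by which these cells are sorted (chr7:127132232-127137823), stood at 261 and 239 CPM in patrolling monocytes, against 17.7 and 24.9 CPM in macrophages and 6.61 and 10.9 CPM in classical monocyte-type cells. The Spn ratio to classical monocyte-type cells was 39.5-fold (10.3 to 337) and 21.8-fold (7.99 to 83.5). Those cells held 2 and 4 UMIs of it, which sets the width of the intervals. Itgal, the α chain of LFA-1, was at 492 and 559 CPM, against 27.1 and 11.8 CPM in macrophages and 72.7 and 139 CPM in classical monocyte-type cells. Both genes were thus highest in patrolling monocytes among the groups compared, in each hashed sample.

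Nr4a1, the nuclear receptor on which the lineage depends, stood at 529 and 574 CPM in patrolling monocytes. It was 25.2 and 33.2 CPM in macrophages, 90.7 and 157 CPM in other Lyz2 cells and 169 and 279 CPM in classical monocyte-type cells. The ratio to classical monocyte-type cells was 3.14-fold (2.19 to 4.53) and 2.06-fold (1.56 to 2.72). Gngt2, a G protein γ subunit, was at 1176 and 1103 CPM, against 155 and 180.4 CPM in classical monocyte-type cells. Pou2f2 encodes the octamer-binding factor OCT2 and was at 585 and 508 CPM, against 109 and 148 CPM in classical monocyte-type cells.

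Of the lipid and lysosome list, 3 of 19 were higher and 8 lower against macrophages, beside 16.2% and 11.5% of all genes. Against other Lyz2 cells 8 of 18 were higher and 2 lower, or 5 and 3 with scaling by trimmed means of M-values (TMM), and against classical monocyte-type cells 4 of 18 were higher and 5, namely Apoe, Ctsd, Lpl, Npc2 and Ctsl, lower. Cd36, Fabp4 and Apoc2 were the members higher in all 3 comparisons. Cd36, a scavenger receptor and fatty acid transporter, was at 616 and 569 CPM in patrolling monocytes, against 40.03 and 45.05 CPM in macrophages and 52.9 and 62.9 CPM in classical monocyte-type cells. Fabp4, a fatty acid carrier, was at 180 and 163 CPM, against 4.25 and 8.20 CPM in macrophages and 3.30 and 0 CPM in classical monocyte-type cells. Apoc2, a cofactor of lipoprotein lipase, was at 286 and 249.0 CPM, against 112 and 51.2 CPM in macrophages and 139 and 79.3 CPM in classical monocyte-type cells. In the identity list, Eno3, a muscle-type enolase, was at 87.1 and 117 CPM in patrolling monocytes, against 2.79 and 4.50 CPM in macrophages and 0 and 2.73 CPM in classical monocyte-type cells. Pglyrp1, a peptidoglycan-binding protein, was at 149 and 239 CPM, against 3.30 and 2.73 CPM in classical monocyte-type cells.

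Members of the list that did not follow were Cx3cr1, the fractalkine receptor, and Itgax, which encodes CD11c. Cx3cr1 was at 187 and 361 CPM in patrolling monocytes, against 550 and 658 CPM in macrophages, 77.0 and 78.6 CPM in other Lyz2 cells and 126 and 123 CPM in classical monocyte-type cells. It was therefore lower than in macrophages, higher than in other Lyz2 cells and uncalled against classical monocyte-type cells. Itgax was at 80.9 and 55.9 CPM, against 49.7 and 60.5 CPM in macrophages and 249.3 and 305 CPM in other Lyz2 cells.

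**Figure D1:**
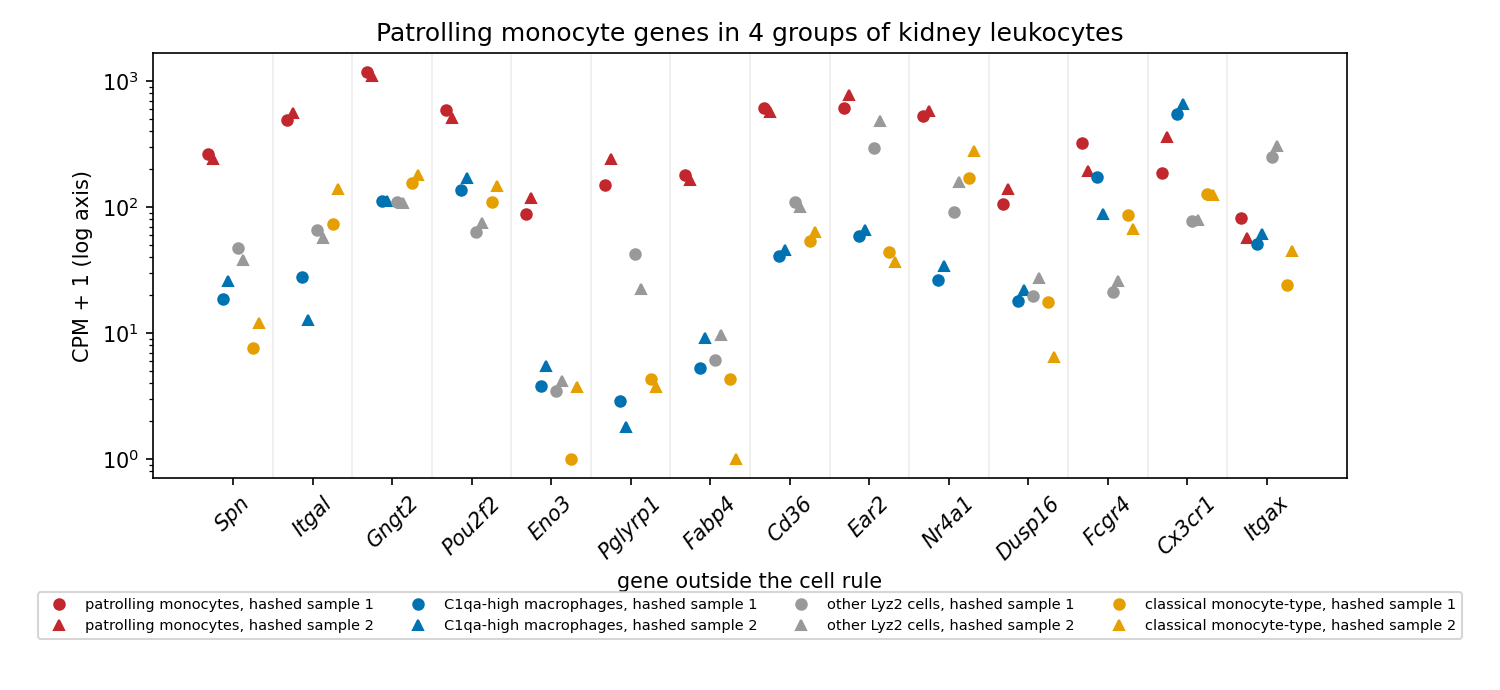
Levels of 14 genes outside the rule, as CPM plus 1 on a log axis, in patrolling monocytes, C1qa-high macrophages, other Lyz2 cells and classical monocyte-type cells; circles are hashed sample 1 and triangles hashed sample 2, each a sum over cells with no error bar. Patrolling monocytes stand highest for Spn, Itgal, Gngt2, Pou2f2, Eno3, Fabp4, Cd36, Ear2 and Nr4a1, while Cx3cr1 is highest in macrophages and Itgax in other Lyz2 cells.

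The share of cells with a UMI gave the same order after every cell was thinned to 1000 UMIs, which left out no patrolling monocyte. T cells, taken at 2 or more Cd3 UMIs with median depths of 4007 and 3591 UMIs, served as a background for genes they should lack. Cd36 was then seen in 50% (33.4 to 66.6%) and 35.4% (22.2 to 50.5%) of patrolling monocytes, in 4.26% and 3.57% of classical monocyte-type cells and in 0.324% and 0.676% of T cells. Without thinning, Cd36 was seen in 78.9% and 66.7% of patrolling monocytes and in 2.05% and 1.78% of T cells. Gngt2 was seen in 57.9% (40.8 to 73.7%) and 64.6% (49.5 to 77.8%) of thinned patrolling monocytes and in 2.27% and 3.15% of thinned T cells. Unthinned, these Gngt2 shares were 94.7% and 95.8% in patrolling monocytes and 11.5% and 13.8% in T cells. Both genes were thus seen far more often in patrolling monocytes than in the T cell background.

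Several transcription factors were higher in patrolling monocytes. Against macrophages 8 of 18 measured factors were higher and 2 lower, against other Lyz2 cells 7 of 17 were higher and 1 lower, and against classical monocyte-type cells 4 of 18 were higher and 2 lower. The shares of all genes were 16.2% and 11.5%, 14.2% and 8.74%, and 10.2% and 6.70%, so the counts of lower factors were near the background. The 4 that were higher than in classical monocyte-type cells were Nr4a1, Pou2f2, Tcf7l2 and Id2. Tcf7l2, a factor of Wnt signalling, was at 106 and 96.6 CPM in patrolling monocytes, against 23.1 and 24.6 CPM in classical monocyte-type cells. Cebpb, whose product is needed for these cells in mice, was at 1182 and 1403 CPM, against 355 and 349 CPM in macrophages and 1037 and 1137 CPM in classical monocyte-type cells. Klf2, a factor that restrains activation, was at 604 and 630.2 CPM, against 67.0 and 58.8 CPM in macrophages and 416 and 522 CPM in classical monocyte-type cells. Both factors were called higher than in macrophages and other Lyz2 cells and were uncalled against classical monocyte-type cells.

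The genes higher in all 3 comparisons numbered 181 of 2585 measured in all of them, and 54 were lower in all 3. The 181 include the 4 rule genes, whose calls follow from the choice of cells. Promoter windows, 250 bases before to 50 after a start site, were found by symbol in the RefSeq table (GRCm38.p6) for 139 of these 181 genes, as 184 windows. The windows were searched on both strands for 5 motifs, of which GAGGAAGT and the reverse complement of TTTCCTCTT share 6 letters. The PU.1-type motif GAGGAAGT was in 8.70% of the 184 windows, 3.70% of 54 windows of the lower genes and 3.20% of all 32851 windows in the table. The KLF-type motif CCACCC was in 41.8%, 31.5% and 31.5% of these sets. The Nr4a1-type motif AAAGGTCA was in 0.543%, 1.85% and 1.51%, and TTTCCTCTT, a longer ETS-type motif, in 1.63%, 0% and 1.19%. The C/EBP palindrome TTGCGCAA was in none of the first 2 sets and in 0.183% of all windows. The 184 windows include 5 of the rule genes, of which 1 held GAGGAAGT and 1 held CCACCC. Windows of the same gene can overlap, the motif shown was chosen after the values were seen, and a match is a run of letters, not a bound site. The 250 bases before the start of Fcgr4 (chr1:171018676-171018925, plus strand) and Cd300ld (chr11:114989887-114990136, minus strand), receptor genes among the 181, are printed 5′ to 3′ to show where the PU.1-type motif lies, in capitals and in Fcgr4 as its reverse complement.
Fcgr4: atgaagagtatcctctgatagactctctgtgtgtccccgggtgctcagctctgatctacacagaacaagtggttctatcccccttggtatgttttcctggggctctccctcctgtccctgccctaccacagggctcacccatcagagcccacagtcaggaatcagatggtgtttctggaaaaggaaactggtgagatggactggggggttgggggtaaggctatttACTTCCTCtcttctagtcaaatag
Cd300ld: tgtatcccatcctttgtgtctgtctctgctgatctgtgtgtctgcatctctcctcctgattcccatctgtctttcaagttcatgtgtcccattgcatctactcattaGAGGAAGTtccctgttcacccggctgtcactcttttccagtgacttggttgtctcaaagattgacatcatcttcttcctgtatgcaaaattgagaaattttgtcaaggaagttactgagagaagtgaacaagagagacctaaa
In these windows the motif began 24 bases before the start of Fcgr4 and 143 bases before that of Cd300ld.

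Adhesion and trafficking genes, through which these cells hold on to vessel walls, were higher in 8 of 15 measured genes and lower in 1 against macrophages, beside 16.2% and 11.5% of all genes. Against other Lyz2 cells 9 of 17 were higher and 5 (Selplg, Itgax, Jaml, Ccr2 and Itgb7) lower, beside 14.2% and 8.74%. Against classical monocyte-type cells 4 of 16 were higher and 2 lower, beside 10.2% and 6.70%. Itga4, the α4 chain of the integrin VLA-4, was at 1145 and 874 CPM in patrolling monocytes, against 115 and 95.4 CPM in macrophages and 284 and 282 CPM in classical monocyte-type cells. Adgre5, which encodes CD97, was at 585 and 432 CPM, against 47.5 and 31.4 CPM in macrophages and 208 and 289.8 CPM in classical monocyte-type cells. Ccr2 was at 255 and 585 CPM, against 905 and 1490.0 CPM in classical monocyte-type cells, a ratio of 0.282 (0.198 to 0.392) and 0.392 (0.318 to 0.481).

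Of 6 Fc receptor genes, 1 was higher and 3 were lower than in macrophages, beside 16.2% and 11.5% of all genes. Set against classical monocyte-type cells, 2 were higher and 2 lower, beside 10.2% and 6.70%. Fcgr4 was at 324 and 193 CPM in patrolling monocytes, against 174 and 87.6 CPM in macrophages, 20.1 and 24.99 CPM in other Lyz2 cells and 85.9 and 65.6 CPM in classical monocyte-type cells, and was called higher in all 3 comparisons. Fcgr1, the high-affinity receptor, was at 56.0 and 25.4 CPM, against 227 and 241 CPM in macrophages and 175 and 221 CPM in classical monocyte-type cells. Fcgr3 was at 361 and 437 CPM, against 1118 and 1001 CPM in macrophages and 757 and 749 CPM in classical monocyte-type cells. The activating γ chain Fcer1g was not called against either of these groups, at 2713 and 3416 CPM in patrolling monocytes and 2313 and 2554 CPM in macrophages.

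Of 10 survival genes measured against classical monocyte-type cells, 1 was higher and none lower, a share like the 10.2% of all genes, so the count says nothing about the list. That gene was Bcl2, whose product blocks mitochondrial cell death and on which patrolling monocytes depend in mice. It was at 174 and 152 CPM in patrolling monocytes, against 30.1 and 32.8 CPM in macrophages and 16.5 and 10.9 CPM in classical monocyte-type cells. The Bcl2 ratio to classical monocyte-type cells was 10.5-fold (4.02 to 35.0) and 13.9-fold (4.91 to 54.5). Other Lyz2 cells, which include cells with Cd3 UMIs, had 159.7 and 124 CPM of Bcl2.

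Classical monocyte genes were not all low in patrolling monocytes. Against classical monocyte-type cells 7 of 11 measured genes were lower and 2, Plac8 and Ifitm6, were higher, beside 6.70% and 10.2% of all genes. Ly6c2, Chil3, Vcan and F13a1 had defined that group, so their calls among the 7 were largely set by that choice. The lower genes outside that definition were Fn1, Thbs1 and Ccr2. Ly6c2 was at 6.22 and 10.2 CPM in patrolling monocytes, against 76.0 and 73.8 CPM in classical monocyte-type cells. Fn1, the matrix protein fibronectin, was at 224 and 254 CPM, against 1764 and 1465 CPM. Thbs1, thrombospondin, was at 174 and 224 CPM, against 843 and 634 CPM. Each of these was lower in patrolling monocytes in both hashed samples.

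Plac8, a gene of blood monocytes and neutrophils, was at 1381 and 1433 CPM in patrolling monocytes, against 2.79 and 2.70 CPM in macrophages and 506 and 539 CPM in classical monocyte-type cells. Ifitm6, a membrane protein of the interferon-induced transmembrane family, was at 479 and 513 CPM, against 5.57 and 6.22 CPM in macrophages and 221 and 205 CPM in classical monocyte-type cells. Chil3, a chitinase-like protein of classical monocytes, was still at 2414 and 1022 CPM in patrolling monocytes, against 18.3 and 4.59 CPM in macrophages and 4547 and 2193 CPM in classical monocyte-type cells. It stood between those groups and was found in 26 of 38 and 27 of 48 patrolling monocytes.

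**Figure D2:**
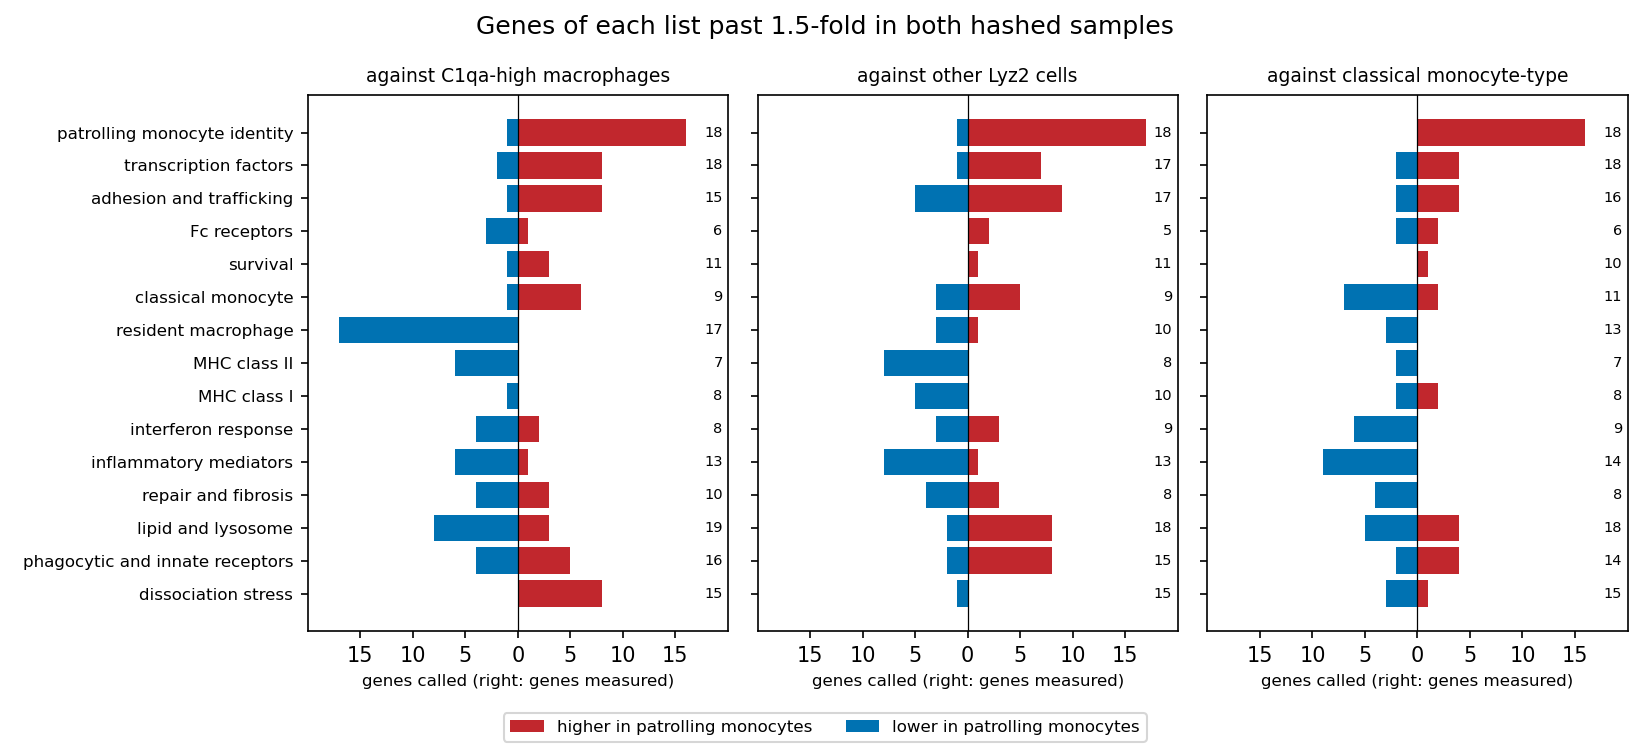
Number of genes of 15 lists called higher (red, to the right) or lower (blue, to the left) in patrolling monocytes at 1.5-fold in both hashed samples, against C1qa-high macrophages, other Lyz2 cells and classical monocyte-type cells; the number at the right of each panel is the genes measured. Identity genes lie to the right in all 3 panels, resident macrophage genes to the left against macrophages with 17 of 17, and inflammatory genes to the left against classical monocyte-type cells with 9 of 14.

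Resident macrophage genes were lower than in macrophages for 17 of 17 measured genes, with median log2 ratios of -3.33 and -2.83, beside 11.5% of all genes lower. The call of C1qa among them was fixed by the way both groups were chosen. Genes that go along with C1qa, such as C1qb and C1qc, are not independent of that choice. The count therefore describes the groups as chosen. Only 3 of 13 were lower against classical monocyte-type cells and none higher, beside 6.70% and 10.2% of all genes. Against other Lyz2 cells 3 of 10 were lower and 1, Apoe, higher, beside 8.74% and 14.2%. C1qb was at 454 and 295 CPM in patrolling monocytes, against 7607 and 7725 CPM in macrophages, while T cells, which should lack it, had 327 and 542 CPM. Mrc1, the mannose receptor, was at 74.7 and 55.9 CPM, against 874 and 1049 CPM in macrophages. Apoe, an abundant lipoprotein gene of macrophages, was at 6452 and 5428 CPM in patrolling monocytes, against 39677 and 27674 CPM in macrophages, 15533 and 11195 CPM in classical monocyte-type cells and 1393 and 1679 CPM in T cells. The summed level of C1qb in patrolling monocytes thus overlapped that in T cells, whereas Apoe lay above it. T cells were taken with no limit on C1qa, and a few cells can raise their sums. Per cell, Apoe in T cells had medians of 6.97 and 8.27 UMIs per 10000 but maxima of 527 and 559. In patrolling monocytes the Apoe medians were 68.9 and 52.7. How much free RNA added to these levels was not tested.

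MHC class II genes, which present antigen to CD4+ T cells, were lower than in macrophages in 6 of 7 measured genes and lower than in other Lyz2 cells in 8 of 8. The shares of all genes lower were 11.5% and 8.74%. Other Lyz2 cells include 97 and 210 cells with 2 or more Cd209a UMIs, which the rule does not admit as patrolling monocytes. How far that choice sets the 8 of 8 was not tested. Against classical monocyte-type cells 2 of 7, H2-DMa and H2-DMb1, were lower and none higher, beside 6.70% and 10.2% of all genes. H2-Aa was at 1101 and 2170.3 CPM in patrolling monocytes, against 7042 and 5018 CPM in macrophages, 2653 and 2556 CPM in classical monocyte-type cells and 619 and 694 CPM in T cells. Summed per cell, H2-Eb1, H2-Ab1 and H2-Aa had medians of 10.4 and 8.72 UMIs per 10000 in patrolling monocytes, against 203 and 101 in macrophages, 20.7 and 8.60 in classical monocyte-type cells and 5.60 and 6.66 in T cells. Few cells carried most of it. At 50 or more UMIs per 10000, a limit chosen after the values were seen, 5 of 38 and 8 of 48 patrolling monocytes held 74.6% and 88.5% of these UMIs. In classical monocyte-type cells 19 of 47 and 19 of 56 cells passed that level and held 90.3% and 94.0%.

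Inflammatory mediators were lower in patrolling monocytes than in classical monocyte-type cells for 9 of 14 measured genes and higher for none. The shares of all genes were 6.70% lower and 10.2% higher. The list had median log2 ratios of -1.16 and -0.77 in that comparison. Against macrophages 6 of 13 were lower and 1, Il1b, higher, beside 11.5% and 16.2%. Against other Lyz2 cells 8 of 13 were lower and 1, Tlr7, higher, beside 8.74% and 14.2%. Ccl2, the main ligand of CCR2, was at 43.6 and 71.2 CPM in patrolling monocytes, against 397 and 517 CPM in classical monocyte-type cells and 573 and 914 CPM in macrophages. Il1b, which encodes interleukin-1β, was at 747 and 2058 CPM, against 1728 and 3196 CPM in classical monocyte-type cells and 221 and 260 CPM in macrophages. It was therefore lower than in classical monocyte-type cells and higher than in macrophages. The Il1b call against classical monocyte-type cells was lost at 2-fold, without Ace in the rule, and with C1qa under 5 per 10000. Tnf was under the level needed to be measured against macrophages and against classical monocyte-type cells. It had 24.9 and 35.6 CPM in patrolling monocytes and 13.2 and 57.4 CPM in classical monocyte-type cells. Tnf was called lower than in other Lyz2 cells, which had 55.8 and 97.1 CPM. That call was lost at 2-fold, at 100 CPM needed to be measured, on thinning to 1000 UMIs and with means over cells.

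Genes of the interferon response showed 6 of 9 lower and none higher against classical monocyte-type cells, beside 6.70% and 10.2% of all genes. Against macrophages 4 of 8 were lower and 2, Ifitm3 and Ly6e, higher, beside 11.5% and 16.2%. The Ly6e call against macrophages was lost with TMM scaling and at 2-fold. Against other Lyz2 cells 3 of 9 were lower and 3, Ifi204, Ifitm3 and Ly6e, higher, beside 8.74% and 14.2%. Cxcl9, a chemokine induced by interferon-γ, was at 6.22 and 0 CPM in patrolling monocytes, against 631 and 199.6 CPM in classical monocyte-type cells. Cxcl10, a chemokine with the same receptor, was at 18.7 and 20.3 CPM, against 403 and 104 CPM. Arg1, an enzyme of arginine breakdown in the repair list, was at 6.22 and 5.08 CPM, against 387 and 79.3 CPM. Of the repair and fibrosis list, 4 of 8 genes were lower than in classical monocyte-type cells and none was higher, beside 6.70% and 10.2%. Against macrophages 4 of 10 were lower and 3 higher, beside 11.5% and 16.2%. Against other Lyz2 cells 4 of 8 were lower and 3 higher, beside 8.74% and 14.2%. Tgfb1 in that list was at 460.4 and 452 CPM in patrolling monocytes, against 155 and 177 CPM in macrophages, where it was called higher, and 294 and 364 CPM in classical monocyte-type cells, where it was not.

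Phagocytic and innate receptor genes were higher in 4 of 14 and lower in 2 against classical monocyte-type cells, beside 10.2% and 6.70% of all genes. The 4 were Trem3, Cd300a, Cd300ld and Lilra5, members of paired receptor families. Cd300a, an inhibitory receptor for membrane lipids of dying cells, was at 454 and 529 CPM in patrolling monocytes, against 95.3 and 124 CPM in macrophages and 149 and 252 CPM in classical monocyte-type cells. Cd14, the lipopolysaccharide co-receptor, was at 199 and 213 CPM, against 545 and 708 CPM in macrophages and 833 and 785 CPM in classical monocyte-type cells. Genes of these families share sequence, so reads may be split between close copies, and the same holds for Ear2, Ifitm6 and Fcgr4 against Fcgr3.

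Some of the 10 genes highest or lowest by mean log2 ratio in a comparison lay in none of the lists. Among them, Gsr, glutathione reductase, was at 890 and 717 CPM in patrolling monocytes and 38.7 and 24.7 CPM in macrophages. Slc12a2, a sodium, potassium and chloride cotransporter, was at 131 and 188 CPM, against 0 and 5.47 CPM in classical monocyte-type cells. Grk3, a kinase of G protein-coupled receptors, was at 523 and 402 CPM, against 36.3 and 43.7 CPM in classical monocyte-type cells. Hpgd, which inactivates prostaglandins, was at 280.0 and 823 CPM, against 31.4 and 78.3 CPM in other Lyz2 cells. At the lower end, Ccl17 was at 112 and 20.3 CPM, against 1324 and 1700 CPM in other Lyz2 cells, and Mgl2 at 74.7 and 25.4 CPM, against 701 and 1582 CPM. Mgl2 is in the type 2 dendritic cell list. Cells with 2 or more Cd209a UMIs are among the other Lyz2 cells and were kept out of patrolling monocytes by the rule.

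Patrolling monocytes were then divided by the number of rule genes seen in a cell, which uses the values of the rule and so only describes the spread inside it. From exactly 2 to 3 or 4 rule genes, 12 of the 18 identity genes were at a higher level in both hashed samples, 1 (Clec4a1) at a lower level in both, and 5 (Fcgr4, Itgax, Cd274, Clec4a3 and Nr4a1) differed in direction between them. A difference of any size counted here, with no fold limit, and the share of all genes was not worked out. Clec4a1 was at 242 and 310 CPM in cells with 3 or 4 and 243 and 321 CPM in cells with exactly 2. Cells with 3 or 4 rule genes, 45 in all, had a median of 3460.0 UMIs and cells with exactly 2 had 4334. The 111 cells with exactly 1, outside the rule, had 7156. The part of depth or of cell type in these differences was not tested. Spn was at 311 CPM in cells with 3 or 4, 188 CPM in cells with exactly 2 and 36.5 CPM in cells with exactly 1. Cd36 was at 827, 359 and 132 CPM in the same order, and Pglyrp1 at 300.1, 99.5 and 28.5 CPM. The difference inside the rule held in each hashed sample for Cd36, at 825 and 828 CPM in cells with 3 or 4 and 454 and 265 CPM in cells with exactly 2. Nr4a1 did not show it in each, at 427 and 705 CPM in cells with 3 or 4 and 608 and 420.2 CPM in cells with exactly 2.

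The 15 classical monocyte genes were counted in the same way, with no fold limit. Of these, 8 were at a lower level with 3 or 4 rule genes than with exactly 2 in both hashed samples. Another 3, among them Plac8 and Ifitm6, were at a higher level in both. Plac8 was at 1857 CPM in cells with 3 or 4 rule genes and 973 CPM in cells with exactly 2. Fn1 was at 119 CPM in cells with 3 or 4 rule genes and 359 CPM in cells with exactly 2. Thbs1 was at 67.9 and 332 CPM in these cells, and Vcan, a matrix proteoglycan, at 0 and 71.9 CPM. Ccr2 was at 114 and 451 CPM in cells with 3 or 4 rule genes of hashed samples 1 and 2, against 365 and 741 CPM in cells with exactly 2. Thbs1 sat in few cells, as 5 patrolling monocytes held 92.9% and 95.5% of its UMIs.

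**Figure D3:**
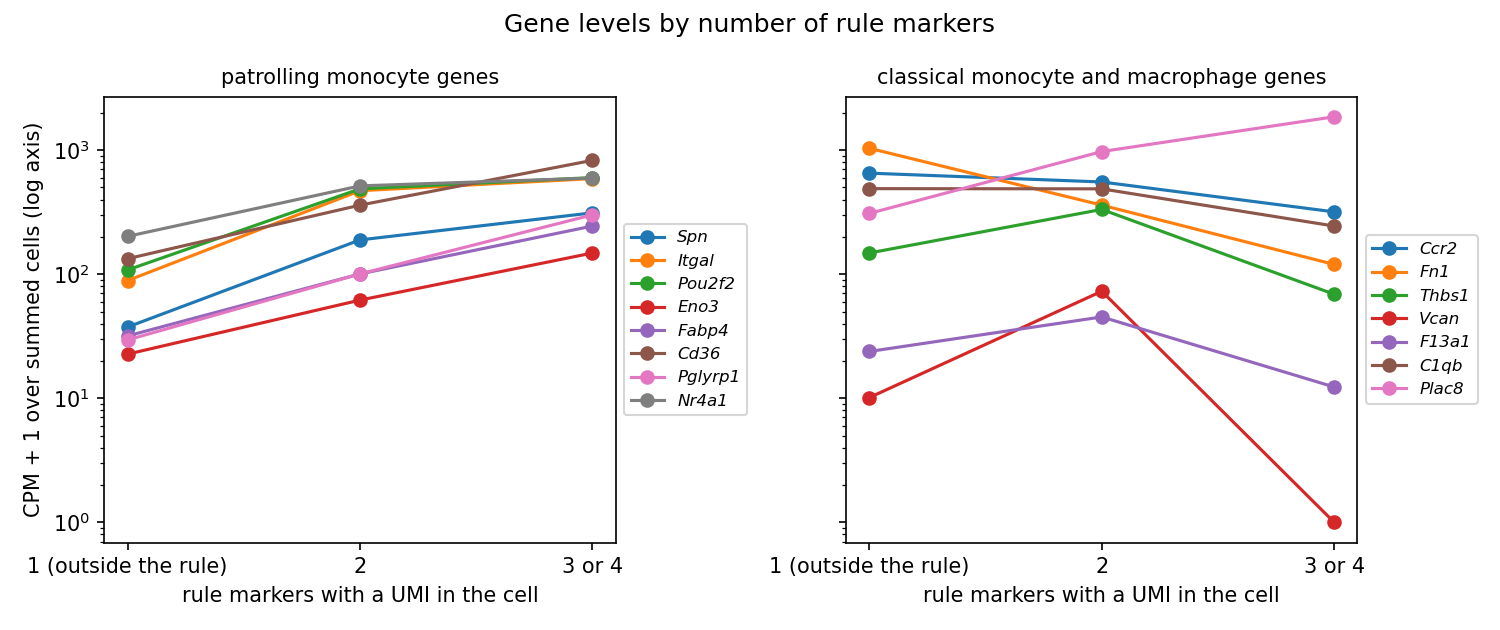
Levels in cells with 1, 2 and 3 or 4 of the rule genes, as CPM plus 1 over summed cells of both hashed samples on a log axis, for patrolling monocyte genes (left) and genes of classical monocytes and macrophages (right). Spn, Cd36 and Pglyrp1 climb from left to right, while Fn1 declines from 1034 to 119 CPM; the first point, 111 cells, lies outside the rule.

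The hashed samples differed within the patrolling monocytes. Of 3281 genes measured in them, 28.6% differed by 1.5-fold or more between hashed samples 1 and 2, compared with 18.8% in classical monocyte-type cells and 3.18% in the far more numerous macrophages. Of the 18 identity genes, 13 differed by less than 1.5-fold, such as Spn, Itgal, Nr4a1 and Cd36 with ratios of hashed sample 1 to hashed sample 2 from 0.879 to 1.09. The other 5 were Cx3cr1, Fcgr4, Pglyrp1, Cd274 and Clec4a3, at 0.517 for Cx3cr1 and 1.68 for Fcgr4, and the intervals of Cx3cr1, Fcgr4 and Clec4a3 left out equality. These 5 of 18 are a share like the 28.6% of all genes, so the count says nothing about the list. Ratios of the 18 were taken without the 10 CPM added and the limit of 50 CPM used for all genes. Il1b was at 747 CPM in hashed sample 1 and 2058 CPM in hashed sample 2, a ratio of 0.363 (0.293 to 0.446). Ccr2 had a ratio of 0.436 (0.298 to 0.628) and Chil3 of 2.36 (1.99 to 2.82). Classical monocyte-type cells showed the same directions, with ratios of 0.541 for Il1b, 0.608 for Ccr2 and 2.07 for Chil3.

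The MHC class II genes differed between hashed samples in patrolling monocytes, with a ratio of 0.366 (0.300 to 0.444) for H2-Ab1, and had a ratio of 0.915 (0.827 to 1.01) in classical monocyte-type cells. Individual cells weigh heavily in such sums. The 5 highest patrolling monocytes held 80.8% and 72.8% of all Il1b UMIs and 50% and 54.2% of all Chil3 UMIs, whereas the 5 highest held 36.7% and 22.7% for Itgal. The median cell gave 0 and 1.04 UMIs of Ccr2 per 10000 in patrolling monocytes, against 7.72 and 14.6 in classical monocyte-type cells. Ccr2 was seen after thinning in 15.8% (6.02 to 31.3%) and 33.3% (20.4 to 48.4%) of patrolling monocytes, against 61.7% and 82.1% of classical monocyte-type cells. Without thinning these Ccr2 shares were 26.3% and 50% in patrolling monocytes and 93.6% and 96.4% in classical monocyte-type cells. T cells, which can themselves express Ccr2, had 7.78% and 12.8% after thinning and give no background for it.

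**Figure D4:**
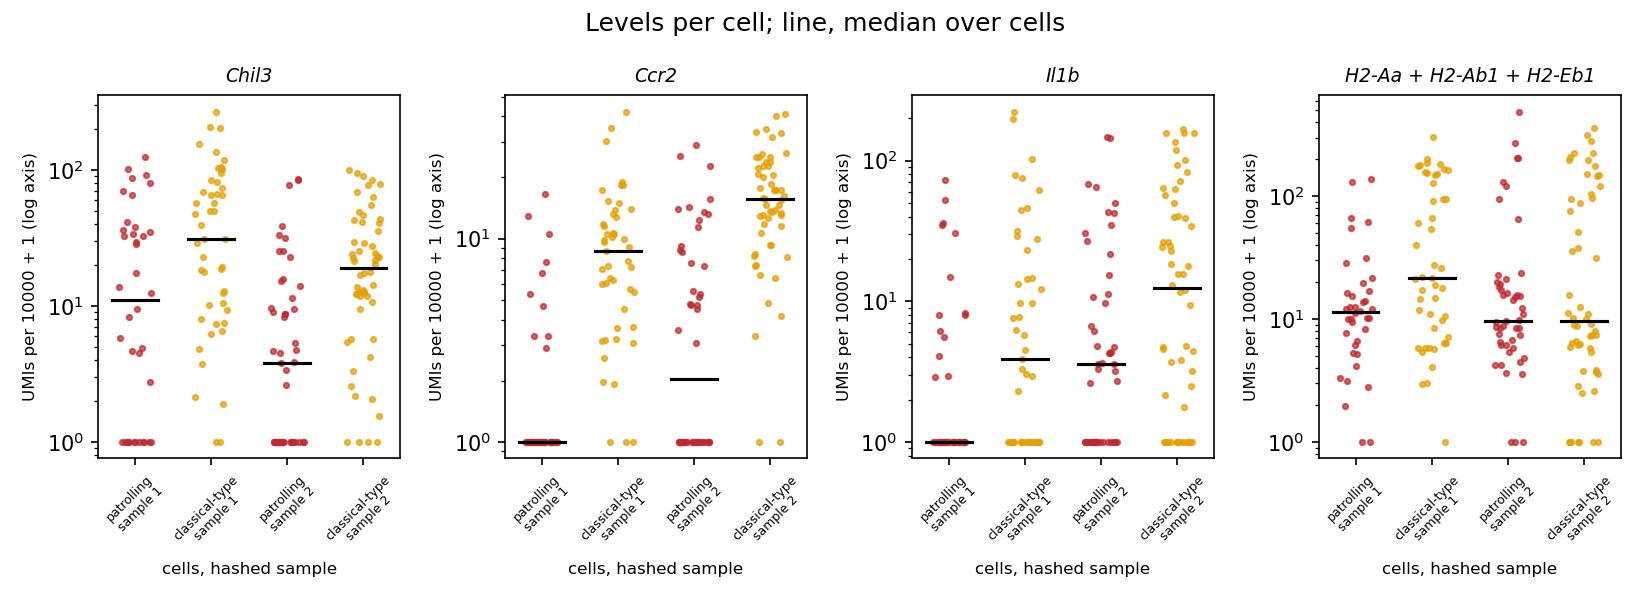
Levels in single cells, as UMIs per 10000 plus 1 on a log axis, for Chil3, Ccr2, Il1b and 3 summed MHC class II genes, in patrolling monocytes and classical monocyte-type cells of each hashed sample; each point is a cell and the line is the median. The median of Ccr2 is 0 and 1.04 in patrolling monocytes and 7.72 and 14.6 in classical monocyte-type cells, and a few patrolling monocytes stand far above the rest for Il1b and the MHC class II sum.

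Markers of other cells were checked over whole lists. Of 10 T cell genes, 8 and 7 were at 0 in patrolling monocytes, Cd3d, Cd3e and Cd3g by the rule itself, and their summed level was 18.7 and 20.3 CPM, against 4778 and 4565 CPM in T cells. Of 10 endothelial genes, on whose cells patrolling monocytes crawl, 5 and 6 were at 0 and the sum was 80.9 and 25.4 CPM. Of 10 neutrophil genes 7 and 8 were at 0, and of 7 platelet genes 5 and 5. Proximal tubule genes summed to 1045 and 432 CPM in patrolling monocytes, 704 and 817 CPM in classical monocyte-type cells and 535 and 812 CPM in T cells.

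Immediate early and heat shock genes, which tissue digestion can induce, were higher than in macrophages for 8 of 15 and lower for none, beside 16.2% and 11.5% of all genes. With TMM scaling 5 of the 8 remained, without Junb, Atf3 and Dusp1. In the comparison with classical monocyte-type cells 1 of 15 was higher and 3 were lower, beside 10.2% and 6.70%. The summed level had medians of 42.7 and 50.7 UMIs per 10000 cell UMIs in patrolling monocytes, against 64.5 and 81.5 in classical monocyte-type cells. Nr4a1 is itself an immediate early gene, and the part of digestion in its level was not tested.

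The balance of higher and lower genes depended on scaling. With total UMIs, 58.4% of the genes called against macrophages were higher, 475 against 338, while TMM gave 44.3%, 356 against 448. Against other Lyz2 cells the share was 61.9%, 413 against 254, and 48.1% with TMM, 317 against 342. Against classical monocyte-type cells it was 60.3%, 285 against 188, and 49.5% with TMM, 240 against 245. TMM moved the median log2 ratio of all measured genes to -0.09, -0.09 and -0.07 in these comparisons, where total UMIs gave 0.08, 0.07 and 0.01. The identity list kept 16 higher genes against macrophages, 16 of 17 against other Lyz2 cells, where Ear2 dropped out, and 16 against classical monocyte-type cells.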

How the data were processed

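Kidney sections were digested with Liberase and viable CD45+ cells were sorted for 3′ Chromium libraries, per the labels' protocols, which speak of human kidneys although the organism label and every gene identifier are mouse. The authors deposited whole-number UMI counts for each cell and gene with no scaling, and the file headers name Cell Ranger 6.1.1; Cell Ranger 6.0, Seurat 4.3.0 and mm10 are named in the submitters' processing notes. The Visium section's expression was not analysed here.

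Of 7015 barcodes, 414 were dropped for holding under 500 UMIs, under 200 genes or over 10% mitochondrial UMIs. Total depth was 20743037 and 25314154 UMIs in hashed samples 1 and 2. Scrublet (scanpy 1.11.5) and unclear hashtags (under 10 counts, or under 2 times the next) called 49 doublets, 0.742%, none a patrolling monocyte, and these were kept except in an alternative. Counts were summed per hashed sample and group (Python 3.11.15, numpy 2.4.6, scipy 1.17.1), scaled to CPM and compared as log2 ratios with 10 CPM added. TMM factors came from edgeR 4.0.16. With 1 sample there is no replicate of a condition and no p-value, and the spread between hashed samples may be technical. The steps were tested on simulated data.

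The members and the 28 gene lists (339 of 341 genes found) were chosen with earlier results of these data known. Named genes were the 10 highest and 10 lowest called genes by mean log2 ratio in each comparison, without rule, mitochondrial, ribosomal, immunoglobulin, T cell receptor and sex-linked marker genes and unnamed gene models, and all list members. Gene positions are from GENCODE on GRCm38, the same build as mm10. Results for a few list genes are not reported here.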

Additional observations from a re-analysis of the deposited data

Results flagged for a closer look

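Hashtag 306, which was the leading hashtag of no patrolling monocyte, gave 4 UMIs summed over the patrolling monocytes, all of them in hashed sample 1. It is listed because it is a signal in a measurement that no comparison used. Over all cells it gave 265 UMIs in hashed sample 1 and 9 in hashed sample 2. In the same patrolling monocytes the assigned hashtags, 301 and 305, gave 72580 UMIs in hashed sample 1 and 81066 UMIs in hashed sample 2.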

How the results depend on the processing

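Of the called genes that were named or listed, 86 of 127 against macrophages, 62 of 129 against other Lyz2 cells and 47 of 88 against classical monocyte-type cells kept their call under every alternative run. The number of patrolling monocytes was 45 when at least 3 of the 4 rule genes were asked for. Counts of genes moved as follows. With 100 CPM needed to be measured, 291 genes were higher and 190 lower against macrophages, 254 and 124 against other Lyz2 cells, and 164 and 110 against classical monocyte-type cells. With 20 CPM, 618 were lower against macrophages, 547 lower against other Lyz2 cells, and 440 higher and 363 lower against classical monocyte-type cells. With no such filter, the numbers higher and lower were 745 and 1089, 620 and 1079, and 683 and 690. At 2-fold they were 257 and 203, 206 and 138, and 125 and 66. Thinning to 1000 UMIs gave 406 lower against other Lyz2 cells and 358 lower against classical monocyte-type cells; the cause was not tested. With either hashed sample alone, which drops the need for both to pass, the patrolling monocytes numbered 38 to 48, and the genes higher numbered 828 to 883, 723 to 843 and 654 to 734 and the genes lower 562 to 592, 447 to 542 and 505 to 570.

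Some named genes turned direction. With at least 3 of the 4 rule genes the log2 ratio of Atf3 against macrophages became -0.23 and that of Thbs1 against other Lyz2 cells -1.41; the cause was not tested. Leaving out other Lyz2 cells with Cd3 UMIs, an alternative added after seeing the data, gave 0.12 for H2-Q4 and 0.19 for Trbc2. Ratios were taken within each hashed sample, but no paired test was possible because the labels give no replicate numbers. No result comes from a test. The 357467 UMIs of the patrolling monocytes put the limit that a count of 0 allows, 3 counts, at 18.7 and 15.2 CPM, so genes below that cannot be called absent.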

Other observations

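Of the cell cycle list, 1 of 3 measured genes was lower against macrophages, 3 of 4 against other Lyz2 cells and none of 2 against classical monocyte-type cells, and none was higher. Of all measured genes 11.5%, 8.74% and 6.70% were lower in these comparisons. The list summed to 280.0 and 289.7 CPM in patrolling monocytes, against 537 and 1016 CPM in macrophages and 377 and 347 CPM in classical monocyte-type cells. Mki67, a gene of dividing cells, was at 0 and 0 CPM, against 43.1 and 100.5 CPM in macrophages, 76.3 and 56.6 CPM in other Lyz2 cells and 13.2 and 5.47 CPM in classical monocyte-type cells. Stmn1, a tubulin-binding protein of dividing cells, was at 6.22 and 30.5 CPM, against 55.7 and 187 CPM in macrophages, a call lost on thinning to 1000 UMIs, at 100 CPM needed to be measured and with means over cells. The limit that a count of 0 allows is 18.7 and 15.2 CPM, so low levels of Mki67 could not be detected at this depth.

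Napsa, an aspartic protease, was at 921 and 579 CPM in patrolling monocytes, against 83.1 and 65.0 CPM in macrophages and 297 and 306 CPM in classical monocyte-type cells, and was called higher than both. The call against classical monocyte-type cells was lost on thinning and at 2-fold. Among MHC class I genes, H2-D1 was at 1792 and 1504 CPM in patrolling monocytes, against 1071 and 995 CPM in classical monocyte-type cells, a call that TMM, thinning and 2-fold did not keep. B2m, the light chain of class I molecules, was at 1823 and 1962 CPM, against 1034 and 957 CPM in classical monocyte-type cells, a call lost at 2-fold.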
